A study of Mus musculus with 48 samples.

Results

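Total RNA of the dorsal vagal complex (DVC) was compared between mice given AC3174 and mice given AC170222, a direct comparison of a GLP-1 receptor agonist with a CCK receptor agonist. The 6 libraries, 3 for each drug, were chosen by their labels alone, out of 48 in the series. The series also holds DVC libraries from saline and from both drugs together, the same 4 treatments in the mediobasal hypothalamus (MBH), and RNA pulled down with ribosomes that carry phosphorylated ribosomal protein S6 (IP), 3 libraries a group. All mice were male C57/Bl6, 9 weeks old, without a transgene named in the labels. Every group, saline included, was fasted for 6 h and injected intraperitoneally with 10 µL per g of body weight. AC3174 was given at 1 µg/kg and AC170222 at 2.5 µg/kg. The drug called AC170222 in the titles is spelled AC710222 in the treatment field, and the protocol also names 10 µg/kg for that spelling, so the dose behind the 3 libraries is not certain. The doses differ between the drugs, and the values compare these doses only. Neither the time from injection to dissection nor the number of mice behind a library is given in the sources used here, and the same holds for the doses within the combination. No label says that the libraries of a group came from separate animals, so p-values measure the spread between libraries, which may be technical.

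The DVC is the hindbrain site where vagal sensory fibres from the gut end. It contains the nucleus of the solitary tract, the area postrema, which lies outside the blood-brain barrier, and the dorsal motor nucleus of the vagus. AC3174 is an analogue of exenatide and acts through GLP1R, a receptor coupled to Gs and cyclic AMP, while AC170222 acts through CCK1R (the product of Cckar), a receptor coupled to Gq and calcium. Both kinds of agonist lower food intake, and CCK acts to a large part through receptors on vagal sensory neurons, whose cell bodies lie outside the DVC.

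Total counts were 31733617 to 95079227 with AC3174 and 36375183 to 94488084 with AC170222, and 16769 to 17806 against 17044 to 18200 genes had a count. Neither measure separated the drugs (exact permutation tests over 3 against 3 libraries, 2-sided, p = 0.8 and p = 0.7, with 0.1 the smallest p this size allows). Most region markers matched the labels in these 6 libraries. On a scale shared with the MBH inputs, Chat, the acetylcholine synthesis enzyme of vagal motor neurons, stood at 120 to 158 CPM (counts scaled to library size) and at 0 to 9.62 CPM in the 6 MBH inputs of these drugs. Agrp, a peptide of arcuate neurons, stood at 0 to 1.27 CPM in DVC and 6.21 to 20.5 CPM in MBH. Th, listed as a DVC marker, went the other way, at 40.1 to 93.5 CPM in DVC and 143 to 211 CPM in MBH. Npy, listed as an MBH marker, was lower in DVC but not absent, at 10.5 to 14.4 CPM against 53.1 to 106 CPM. The AC3174 libraries carry one code letter and the AC170222 libraries another, so whatever that letter stands for cannot be told apart from the drug. The code numbers, 4 to 6 for AC3174 and 1 to 3 for AC170222, are nearly confounded with it as well: of the sets 1 to 2, 3 to 4 and 5 to 6, only the middle one holds both drugs, with 1 library of each. Values with these sets as a covariate rest on that pair and on the saline and combination libraries. Saline carries the letter of AC3174 and numbers 1 to 3, and the combination the letter of AC170222 and numbers 4 to 6. Where AC3174 goes with the combination and AC170222 with saline, the treatment cannot be told apart from numbers 4 to 6 against 1 to 3. The first AC3174 library stood apart in mitochondrially encoded mRNAs, which summed to 33800 CPM there, 7410 and 9210 CPM in the other AC3174 libraries and 4440 to 10400 CPM with AC170222. It also held the most Ttr, the main mRNA of choroid plexus, at 1049 CPM, against 35.1 and 160 CPM in the other AC3174 libraries and 13.6, 31.4 and 123 CPM with AC170222.

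No gene differed between the drugs at an adjusted p under 0.05. Of 17477 genes tested by edgeR's quasi-likelihood F test with Benjamini-Hochberg adjustment, 0 were called (0%), and the smallest adjusted p was 1. At an unadjusted p under 0.05 there were 732 genes (4.19%), 348 higher with AC3174 (1.99%) and 384 lower (2.2%). All 3 AC3174 libraries lay above or below all 3 AC170222 libraries for 1723 genes (9.86%), 814 of them above (4.66%) and 909 below (5.2%). Limma-voom also called 0 genes. DESeq2 called 240 of 16961 genes (1.42%), 121 higher and 119 lower with AC3174. Of the 240, 207 had at least 1 of the 6 libraries at 0 counts, 188 had all 3 libraries of 1 drug at 0, and 27 had a mean of at least 10 CPM with either drug.

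**Figure D1:**
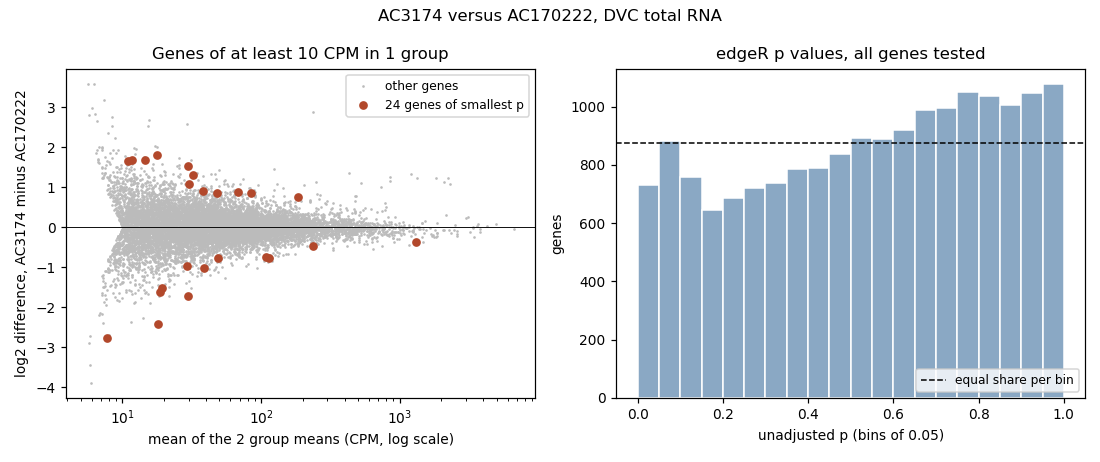
Left, log2 difference (AC3174 minus AC170222) against mean CPM on a log axis, for the 10237 genes whose mean reached 10 CPM under at least 1 drug, with the 24 named genes of smallest p in red. Right, number of genes in each bin of unadjusted p over all 17477 genes, with a dashed line at an equal share per bin; the lowest bin holds 732 genes, or 4.19%.

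For the 9353 genes whose mean reached 10 CPM under both drugs, the median standard error of the log2 difference was 0.32, and the 95% interval typically reached 0.70 to either side (median). The interval lay within 1 log2 unit of 0 for 53.7% of them and within 2 log2 units for 93.3%. The missing calls therefore do not show that the drugs act alike: for the other genes a difference beyond 1 log2 unit lay inside the interval. The median log2 difference over all genes tested was 0.0069.

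The named genes of smallest p were 24, 12 in each direction, 8 whose mean reached 10 CPM under both drugs and 4 that reached it under 1 drug only. All were protein coding, with adjusted p = 1 in edgeR, and they were picked for their p, so that neither the absence of overlap in all 24 nor the size of their differences is a test. Over the 10237 genes of that level, 1084 did not overlap (10.6%), 501 above (4.89%) and 583 below (5.7%). All 24 kept their sign under the 14 alternative settings, and DESeq2 called all 24. These fits used the same libraries that picked the genes, so neither result is independent support. With the code numbers as a covariate Onecut2 was at 0.95 in place of 1.65, Zbed5 at -0.93 in place of -1.52 and Zfc3h1 at -1.79 in place of -2.42 (log2).

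The gene of smallest p was an enzyme gene. Hmgcll1, which encodes a relative of the mitochondrial HMG-CoA lyase (GRCm38 chr9:76014855-76136350), was counted at 31.3, 24.6 and 27.2 CPM with AC3174 and at 9.71, 7.98 and 6.25 CPM with AC170222. The drugs did not overlap, and the 6 saline and combination libraries, at 19.0 to 33.4 CPM, also lay above all 3 AC170222 libraries. Its log2 difference was 1.79 ± 0.30 (SE, 95% interval 1.15 to 2.44), with the smallest unadjusted p of the named genes, 7.4e-05 (edgeR, 3 libraries a group).

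Aldh1a1, which encodes an enzyme that makes retinoic acid (chr19:20492715-20643465), stood at 265, 222 and 206 CPM with AC3174 and 133, 128 and 145 CPM with AC170222. Here the AC3174 libraries were the ones apart, since the 3 saline libraries read 159, 169 and 174 CPM and the combination 119, 156 and 117 CPM. The log2 difference was 0.77 ± 0.15. Gla, the lysosomal alpha-galactosidase A, was low under both drugs, at 13.7, 19.6 and 20.5 against 6.07, 6.94 and 3.78 CPM (log2 difference 1.68 ± 0.46). Jmjd6, a nuclear dioxygenase that hydroxylates lysine, stood at 59.8, 49.6 and 40.7 against 19.6, 27.7 and 32.1 CPM (log2 difference 0.92 ± 0.24).

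Rin2, an activator of the endosomal GTPase Rab5 (chr2:145675215-145887616), also stood higher with AC3174 and was counted at 51.9, 39.8 and 46.3 CPM with AC3174 and 12.5, 20.3 and 22.7 CPM with AC170222. The AC170222 libraries lay below those of the other 3 treatments, as saline read 34.1 to 40.6 CPM and the combination 44.1 to 51.5 CPM. The log2 difference was 1.31 ± 0.25 (95% interval 0.76 to 1.87).

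Ednrb, the endothelin B receptor, which astrocytes carry, stood at 48.4, 55.9 and 28.2 CPM with AC3174 and 9.13, 24.7 and 11.7 CPM with AC170222. The lowest AC3174 library was close to the highest AC170222 library, and the log2 difference was 1.54 ± 0.43 (95% interval 0.59 to 2.48). Cadm2, a synaptic adhesion molecule, read 80.2, 105 and 81.3 against 45.2, 44.5 and 54.5 CPM (log2 difference 0.89 ± 0.23), with saline between the drugs at 62.3 to 63.6 CPM.

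Of the remaining 4 higher genes, 3 encode proteins that bind DNA or partner with those that do. Mlx, the shared partner of the glucose-sensing factors MondoA and ChREBP, had a log2 difference of 0.87 ± 0.24, and 19.3% of its exonic bases overlap Psmc3ip on the opposite strand. The libraries keep no strand, so reads of such a pair cannot be told apart. Zfp11, a zinc finger gene, had a log2 difference of 1.67 ± 0.48, and the homeobox factor Onecut2 1.65 ± 0.48. Stk19 stood at 50.6, 33.4 and 38.0 against 22.5, 19.7 and 15.7 CPM, a log2 difference of 1.08 ± 0.28.

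Among the 12 genes that stood lower with AC3174 were some whose proteins act on RNA. Larp4b, which binds and stabilizes mRNAs, stood at 69.4, 87.4 and 96.5 against 117, 171 and 144 CPM (log2 difference -0.77 ± 0.20). Zfc3h1, part of a nuclear RNA decay complex, had a log2 difference of -2.42 ± 0.67, with 1 AC170222 library at 60.0 CPM and the others at 17.1 and 14.6 CPM. Without that library, the second, it was -1.47.

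Another 3 serve protein folding, turnover or endosomal sorting. Hspa8, the constitutive HSP70 chaperone, was the most abundant of the 24, at 1067, 1282 and 1081 CPM with AC3174 and 1641, 1410 and 1356 CPM with AC170222. Saline stood at 1373 to 1407 CPM, near AC170222, and the combination at 1064 to 1076 CPM, near AC3174. That split also follows the code numbers, so the treatment cannot be told apart from them here. The log2 difference was small and narrow, -0.36 ± 0.10. Psmd3, a subunit of the proteasome cap, read 216, 172 and 205 against 272, 292 and 255 CPM (log2 difference -0.46 ± 0.13). Dnajc13, an endosomal co-chaperone, stood at 15.1, 16.3 and 10.2 against 21.1, 60.2 and 55.9 CPM, so that its log2 difference of -1.73 ± 0.44 leaned on 2 of the AC170222 libraries.

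Cep290, a protein at the base of the primary cilium (chr10:100487558-100574840), was counted at 29.3, 26.0 and 21.5 CPM with AC3174 and 51.5, 57.3 and 46.7 CPM with AC170222. The AC170222 values were close to saline, 40.5 to 49.1 CPM. The AC3174 values and the combination, at 27.5 to 37.6 CPM, lay below saline, a split that also follows the code numbers. The log2 difference was -1.02 ± 0.22, and -0.72 with the code numbers as a covariate. Poli, a DNA polymerase that copies past damaged bases, stood at 3.00, 0.638 and 2.27 CPM with AC3174 and 14.1, 13.3 and 13.0 CPM with AC170222, a log2 difference of -2.77 ± 0.64. Every other DVC input held at least 7.11 CPM of it. Pid1, an adaptor that binds lipoprotein and insulin receptor signalling proteins, had a log2 difference of -0.75 ± 0.19 and Osbp2, which binds oxysterols, -0.96 ± 0.25. Zbed5, a zinc finger gene, had a log2 difference of -1.52 ± 0.40. Spin2c had one of -1.61 ± 0.34, and it belongs to a family of similar genes and pseudogenes, so its counts are uncertain.

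**Figure D2:**
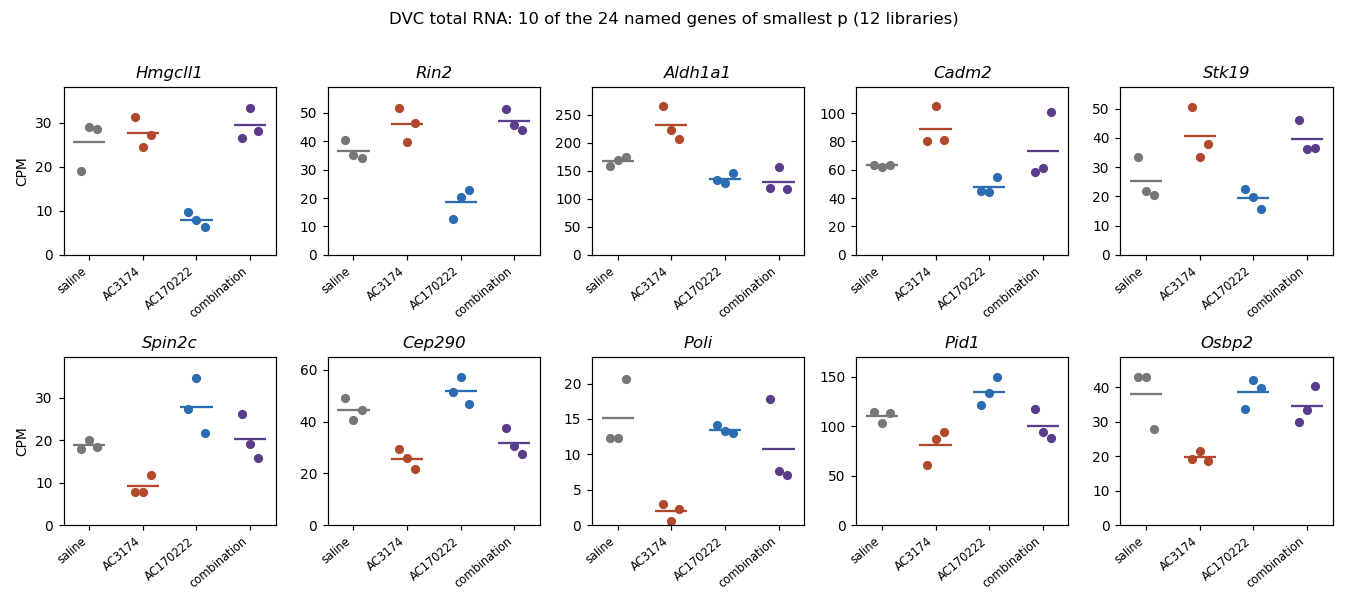
CPM in each of the 12 DVC input libraries (points) and group means (bars) for 10 of the 24 named genes of smallest p, higher with AC3174 in the upper row and lower in the bottom row, each panel on its own axis from 0. For Hmgcll1 and Rin2 the AC170222 libraries lie below the other 3 treatments, while for Osbp2 and Poli the AC3174 libraries do.

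The same genes were then read in the libraries of the same drugs that had no part in choosing them. In MBH total RNA, 14 of the 24 differed in the same direction as in DVC, against 52.9% of the 10203 genes of at least 10 CPM compared, and 0 of the 24 had an unadjusted p under 0.05. In DVC RNA bound to phosphorylated S6, 10 of the 24 had the same direction, against 53.2% of 10199 genes. Of these 24, 1 had an unadjusted p under 0.05 there, Psmd3, whose log2 difference of 1.02 ± 0.45 was opposite to that in DVC total RNA. Hmgcll1 differed by 0.20 ± 0.34 (log2) in MBH and by 0.66 ± 1.56 in the DVC IP. Aldh1a1 differed by 0.29 ± 0.49 in MBH and by -0.35 ± 0.87 in the DVC IP. Over all genes, 0 of 16622 were called in MBH (0%, 652 at an unadjusted p under 0.05, or 3.92%) and 0 of 15815 in the DVC IP (0%, 710 genes, or 4.49%), by the same edgeR test. DESeq2 called 424 and 669 genes there, and limma-voom 0 and 7.

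The receptors that the drugs act on were scarce in DVC total RNA. Divided by exon length and averaged over the 12 DVC inputs, Cckar stood at 1.47 CPM per kb and Glp1r at 0.247 CPM per kb, against 13.9 CPM per kb for Fos. Glp1r was counted at 5.28, 2.33 and 0 CPM with AC3174 and 0.952, 2.73 and 1.14 CPM with AC170222, with 0 in all 3 saline libraries. The drugs overlapped, and the interval of the log2 difference, -4.08 to 5.39, was too wide to place it. The fitted difference of 0.66 turned to -0.46 without the first AC3174 library, -0.28 with the replicate block and -0.88 in limma-voom. It kept its sign in 10 of 13 alternatives and was 2.55 with the code numbers as a covariate. Cckar was counted at 9.36, 7.15 and 10.5 CPM with AC3174 and at 2.60, 0 and 3.21 CPM with AC170222. The drugs did not overlap, yet saline itself ran from 0 to 9.71 CPM, and the log2 difference of 2.21 ± 1.89 did not pass the test (unadjusted p = 0.267, edgeR).

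Cckbr, the other CCK receptor, stood at 4.75, 5.90 and 4.31 CPM with AC3174 and 11.6, 7.72 and 3.18 CPM with AC170222, and overlapped. Gcg, the precursor of GLP-1 made by neurons of the solitary tract, read 6.94, 8.02 and 3.37 against 10.7, 14.8 and 4.92 CPM (log2 difference -0.73 ± 0.97). Cck itself read 19.4, 9.97 and 11.7 against 16.7, 20.3 and 12.6 CPM (log2 difference -0.27 ± 0.46). With the library code numbers as a covariate both turned direction, to 0.66 for Gcg and 0.67 for Cck. Of the 12 listed peptides, receptors and processing enzymes of these systems, 9 could be tested, with 0 called by edgeR. DESeq2 called 1, Dpp4, a protease that cuts GLP-1, which had counts in 1 of the 6 libraries only, at 2.09 CPM. The drugs did not overlap for Cckar alone, 1 of 9 (11.1%, against 9.86% of all genes).

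Signalling genes below these receptors were counted by pathway. For the Gs and cyclic AMP list, 28 genes were tested, 13 above and 15 below 0, with a median log2 difference of -0.06. For the Gq and calcium list, 30 were tested, 11 above and 19 below, with a median of -0.07; 0 genes of either list were called by edgeR or DESeq2. Dgkb, a diacylglycerol kinase that ends Gq signals, stood at 43.8, 63.6 and 46.3 CPM with AC3174 and at 82.0, 82.5 and 85.2 CPM with AC170222 (log2 difference -0.70 ± 0.25, unadjusted p = 0.0172, edgeR). Prkce, a protein kinase C of the same pathway, stood at 48.9, 43.8 and 44.9 against 62.1, 64.6 and 58.0 CPM (log2 difference -0.43 ± 0.19). In the Gs list Prkar1b, a regulatory subunit of protein kinase A, had a log2 difference of -0.24 ± 0.11, while Prkar2a, another regulatory subunit, lay on the other side at 0.60 ± 0.30, with 110, 114 and 140 against 42.3, 88.0 and 110 CPM. The drugs did not overlap for these genes, the 2 of smallest p in each list at 10 CPM or more. Over the lists 3 of 28 Gs genes (10.7%) and 4 of 30 Gq genes (13.3%) did not overlap, against 9.86% of all genes.

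Immediate early genes, which neurons switch on within minutes of firing, held 0 edgeR calls among 33 tested, and DESeq2 called 1, Atf3. They divided into 16 above and 17 below 0, with a median of -0.11, and 4 did not overlap (12.1%, against 9.86% of all genes). Fos was counted at 25.4, 35.3 and 41.9 CPM with AC3174 and at 48.1, 34.4 and 40.8 CPM with AC170222. The drugs overlapped (log2 difference -0.27 ± 0.29, 95% interval -0.91 to 0.37), and the saline libraries, at 19.6, 23.6 and 14.2 CPM, lay below all 6. Egr1 and Nr4a1 overlapped too, with log2 differences of -0.44 ± 0.38 and -0.95 ± 0.65, as did Arc, at -0.33 ± 0.51. With the code numbers as a covariate Egr1 was at -1.19 and Arc at -1.30. Fosb and Npas4 stayed under 2 CPM in these 6 libraries.

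Junb, a partner of FOS in the AP-1 factor, stood lower with AC3174, at 12.9, 12 and 15.7 CPM against 19.6, 21.1 and 23.5 CPM with AC170222. Saline read 19.1 to 27.8 CPM, so the AC3174 libraries were the low ones, and the log2 difference was -0.66 ± 0.28 (unadjusted p = 0.0368, edgeR). Atf3, a stress-induced factor of the same family, had 0 counts in all 3 AC3174 libraries and stood at 4.00, 11.1 and 3.31 CPM with AC170222. It was low in saline, at 0, 2.28 and 0.16 CPM, and in the combination, at 3.28, 3.81 and 4.04 CPM. Its unadjusted p was 0.00135 in edgeR, with an adjusted p of 1, and DESeq2 called it at an adjusted p of 5.07e-06. Its fitted difference rests on a group at 0 and is not given.

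**Figure D3:**
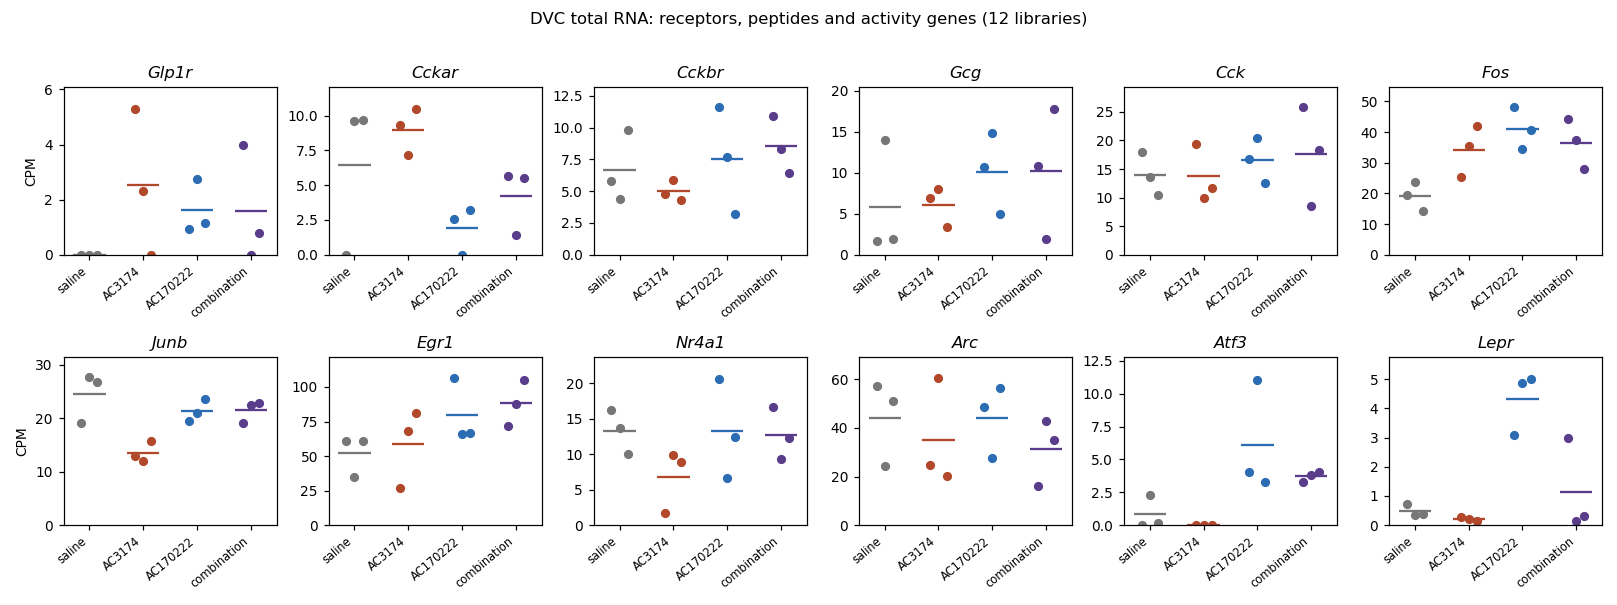
CPM in each of the 12 DVC input libraries (points) and group means (bars) for the drugs' receptors, their peptides, immediate early genes and Lepr, each panel on its own axis from 0. Fos lies above saline in all libraries of both drugs, with the drugs overlapping, and Junb and Lepr are lower in all AC3174 libraries than in all AC170222 libraries.

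Among 33 listed appetite receptors, 30 could be tested, 13 above and 17 below 0, with 0 called by edgeR or DESeq2 and 5 not overlapping (16.7%, against 9.86% of all genes). Lepr, the leptin receptor, stood at 0.289, 0.208 and 0.13 CPM with AC3174 and at 3.08, 4.86 and 4.99 CPM with AC170222. The drugs did not overlap (log2 difference -4.35 ± 1.34, unadjusted p = 0.00762, edgeR). Saline, at 0.341 to 0.708 CPM, lay below every AC170222 library and a little above every AC3174 library. All of these are low levels. Hcrtr1, an orexin receptor, was at 0, 12.2 and 0 CPM with AC3174 and at 12.3, 16.5 and 15.5 CPM with AC170222. It was the only gene called when a library was left out: without the second AC3174 library its adjusted p was 0.0222, while with all libraries it was 1 (edgeR). Ntsr2, a neurotensin receptor of astrocytes, stood at 129, 172 and 121 against 84.4, 120 and 83.7 CPM, a log2 difference of 0.55 ± 0.25.

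None of 15 astrocyte genes was called by edgeR or DESeq2. Of the 15, 13 had a log2 difference above 0 and 2 below, with a median of 0.29, against 8856 above and 8598 below over all genes. The summed level of the 15 was 5620 to 5800 CPM with AC3174 and 4670 to 4770 CPM with AC170222, without overlap, but saline spanned 4410 to 5730 CPM and the combination 4820 to 5990 CPM. Fewer astrocytes in a dissection and less RNA per astrocyte cannot be told apart in tissue RNA. Without the first AC3174 library the median was 0.17, and with the library code numbers as a covariate it was 0.50. Other non-neuronal lists also had medians above 0: 0.43 for endothelial genes (8 of 12 above 0), 0.35 for meningeal and fibroblast genes (8 of 10), 0.25 for microglial genes (10 of 15) and 0.13 for oligodendrocyte genes (10 of 14). Pericyte and smooth muscle genes were at -0.19 (4 of 9). The microglial median was 0.0021 without the first AC170222 library, and the oligodendrocyte median 0.019 without the third. Only 3 of the 12 endothelial genes had a mean of at least 10 CPM with either drug.

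Gjb6, the gap junction protein connexin 30, had the smallest p of the list, at 98.0, 94.4 and 56.3 CPM with AC3174 and 40.7, 49.2 and 31.3 CPM with AC170222. Its log2 difference was 1.04 ± 0.30 (unadjusted p = 0.00532, edgeR). Atp1b2, a sodium pump subunit of astrocytes, read 195, 260 and 181 against 140, 165 and 139 CPM (log2 difference 0.52 ± 0.18). Fgfr3 and Aldoc also did not overlap, with log2 differences of 0.64 ± 0.29 and 0.26 ± 0.14, which made 4 of 15 (26.7%, against 9.86% of all genes). The classical markers Gfap, Slc1a3 and Aqp4 overlapped, at 0.27 ± 0.21, 0.16 ± 0.39 and -0.06 ± 0.36.

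**Figure D4:**
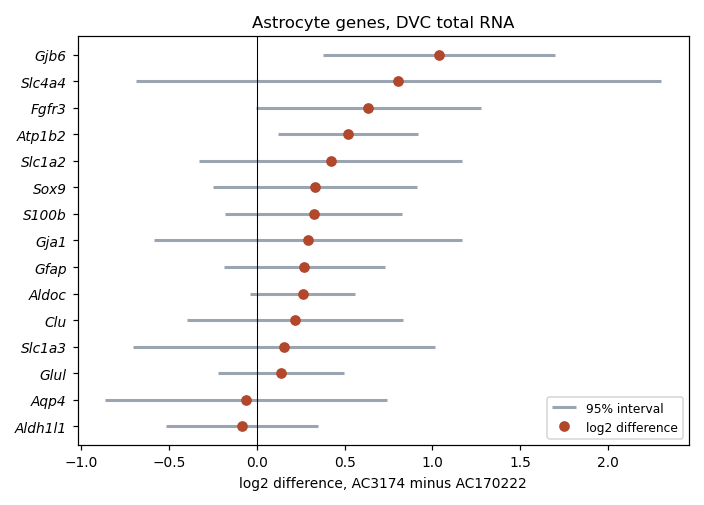
Log2 difference (AC3174 minus AC170222, points) and its 95% interval (lines) for the 15 astrocyte genes, ordered by size. In 13 of 15 the point lies above 0, and only the intervals of Gjb6 and Atp1b2 exclude 0.

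Medians of 6 neuronal lists lay below 0, most of them near it, and 1 lay above. Pan-neuronal genes had a median of -0.05, with 5 of 15 above 0, glutamate neuron genes -0.06 (4 of 10), and GABA and glycine neuron genes -0.11 (5 of 12). The signs of the last pair turned in 3 and 2 of 12 alternatives. Serotonin neuron genes, mostly at low counts, had a median of -0.75 (1 of 6 above 0), which was -0.05 without the second AC170222 library. Cerebellar granule and Purkinje genes had 8 of 10 above 0 and a median of 0.50. Catecholamine neuron genes had 10 of 12 below 0 and a median of -0.43. Only Gch1, which makes the cofactor of tyrosine hydroxylase, did not overlap (1 of 12, 8.33%, against 9.86% of all genes). It stood at 22.9, 6.36 and 25.1 against 39.3, 35.4 and 33.4 CPM. Th itself read 54.4, 61.8 and 39.9 against 67.6, 91.6 and 50.6 CPM (log2 difference -0.43 ± 0.27). With the library code numbers as a covariate the median of that list was -0.05. Vagal motor genes had 4 of 11 above 0 and a median of -0.08, whose sign turned in 3 of 12 alternatives. With the code numbers as a covariate that median was 0.41, with 8 of 11 above 0. Chat was even within each drug, at 153, 154 and 155 against 119, 123 and 129 CPM, yet saline ran from 45.2 to 177 CPM (log2 difference 0.32 ± 0.41).

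Factors of the area postrema and solitary tract had 9 of 13 below 0 and a median of -0.51. Hoxb5, a hindbrain position gene, stood at 141, 152 and 135 against 227, 196 and 173 CPM, without overlap (log2 difference -0.48 ± 0.24). The list's summed level was 296 to 424 CPM with AC3174 and 407 to 505 CPM with AC170222, with saline at 227 to 428 CPM. How far the position of the dissection moved with the drug was not tested.

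Stress and hormone lists were small in their shifts. Heat shock chaperones had 9 of 12 below 0 and a median of -0.21, with Hspa8 and Hsp90aa1 not overlapping (2 of 12, 16.7%, against 9.86% of all genes). The summed level of the 12 was 4580 to 5120 CPM with AC3174 and 5490 to 5940 CPM with AC170222. Saline spanned 4990 to 5810 CPM, which reaches into both, and the combination 4720 to 5200 CPM. With the code numbers as a covariate the median was -0.05. Glucocorticoid-responsive genes had 14 of 17 above 0 and a median of 0.22, which was 0.08, with 9 of 17 above 0, without the first AC3174 library. Tsc22d3, a direct target of the glucocorticoid receptor, read 627, 535 and 576 against 528, 389 and 424 CPM (log2 difference 0.37 ± 0.16). Nr1d1, the clock repressor REV-ERB alpha, stood at 50.9, 66.3 and 80.6 against 106, 98.1 and 99.3 CPM (log2 difference -0.62 ± 0.20, unadjusted p = 0.00982, edgeR), while the clock list as a whole had 8 genes on each side.

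Among metabolic lists, cholesterol synthesis genes had a median of 0.0051 and the mTOR and S6 kinase pathway one of 0.01. Glycolysis genes had 7 of 20 above 0 and a median of -0.12, with 3 genes above and 3 below without overlap (6 of 20, 30%, against 9.86% of all genes). Mitochondrially encoded mRNAs were above 0 in 13 of 13, with a median of 1.24, but all 13 overlapped between the drugs. Without the first AC3174 library the median was 0.21, with 11 of 13 above 0. Choroid plexus genes had a median of 1.71 with that library and -0.13 without it, and red blood cell genes 0.63 and -0.67.

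**Figure D5:**
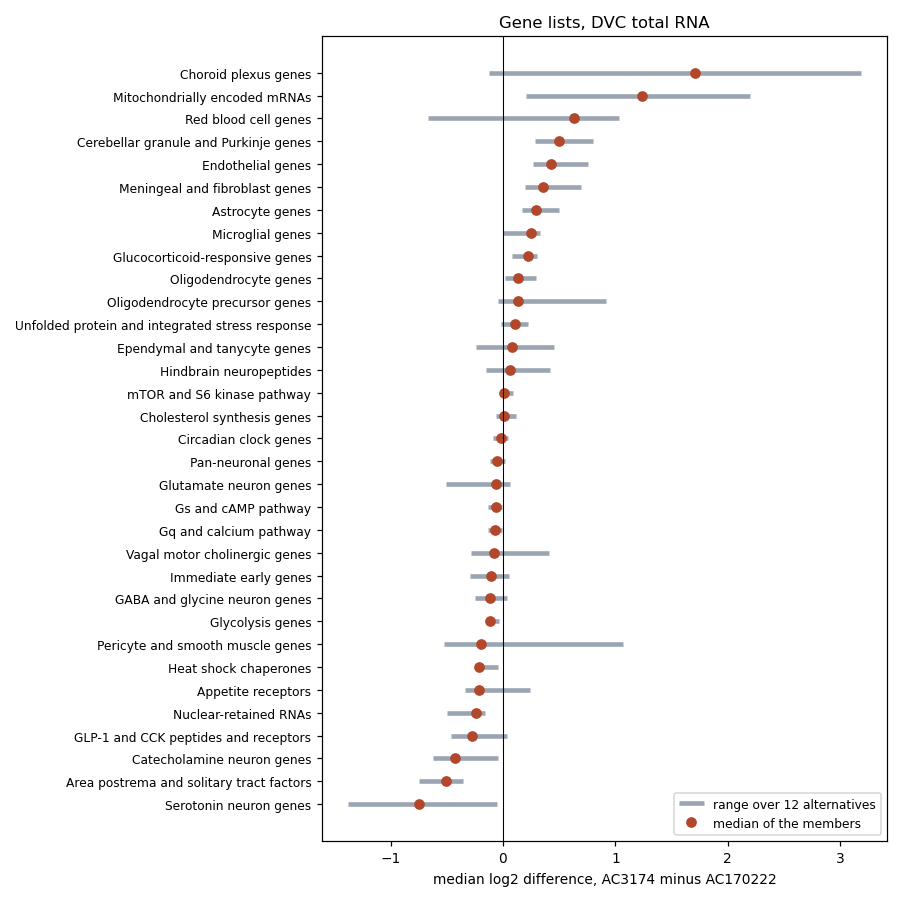
Median log2 difference (AC3174 minus AC170222) of the tested members of each of 33 gene lists (points) and the range of that median over 12 alternative settings (lines). The line crosses 0 for 17 lists, and those of choroid plexus, mitochondrial and red blood cell genes are the widest.

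Whether a difference between the drugs depended on the region was tested as an interaction over the 24 inputs of DVC and MBH. Of 18576 genes, 945 had an unadjusted p under 0.05 (5.09%) and 1 was called (0.00538%), Akain1, which encodes an inhibitor of the protein kinase A anchor system and is described among the flagged results. For Hmgcll1 the difference between the regions was 1.59 ± 0.43 on the log2 scale and did not pass the test (edgeR, adjusted p = 0.928). Other tools gave other calls for this test: DESeq2 called 733 genes, and limma-voom called 2, Gpr152 and Fam19a4, but not Akain1 (adjusted p = 0.0883).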

How the data were processed

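Raw read counts per gene were deposited by the authors for 38293 Ensembl genes in 48 libraries. Per the labels' protocols, cDNA was amplified with SMART-Seq v4 and tagged without strand or molecular identifiers, and the submitters' processing notes name GRCm38, HTSeq 0.6.1p1 and TopHat2 2.0.11 without their roles. Settings and annotation: not given in the sources used here. Symbols and positions came from GENCODE M21 (36429 identifiers matched).

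The 12 DVC inputs were fitted together with edgeR 4.0.16 under R 4.3.3 (TMM, filterByExpr, a 2-sided quasi-likelihood F test), contrast AC3174 minus AC170222, Benjamini-Hochberg over all genes, called under 0.05. CPM used TMM-scaled library sizes. Values after ± are SE, and CPM values of a group are listed in replicate order. MBH inputs and DVC IP libraries were fitted likewise, and the regions compared over 24 inputs. The scripts were tested on simulated counts.

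Named genes were, excluding predicted genes, any called (0), the 8 per direction of smallest p with at least 10 CPM in both groups, the 4 with that level in 1 group, 12 drug pathway genes, and the 2 of smallest p in each of 33 lists; some other list members were named after their values were seen, and some named genes are not reported here. The members and lists were chosen with earlier results of these data known. Alternatives were DESeq2 1.42.0, limma-voom 3.58.1, other scaling and filters, the 6 libraries alone, a replicate block, the library code numbers in sets (1 to 2, 3 to 4, 5 to 6) read from the titles, and leaving out each library. Deviations of same-numbered AC3174 and AC170222 libraries correlated at 0.1, 0.0191 and -0.00717 over 9864 genes, so the numbers were not taken to pair them. Replicates differed by 134.1 or more in chi-square per degree of freedom, so none was a copy. Depth was 29492622 to 95079227 counts in the 12 DVC inputs.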

Additional observations from a re-analysis of the deposited data

Results flagged for a closer look

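Akain1 (GRCm38 chr17:69439326-69489233, protein coding) was the only gene that edgeR called for a difference between the regions in the drug difference, at 6.92 ± 1.05 on the log2 scale (DVC minus MBH, adjusted p = 0.0462 by edgeR's quasi-likelihood test over 24 libraries). In DVC it stood at 69.3, 42.8 and 47.8 CPM with AC3174 and 42.0, 39.4 and 35.1 CPM with AC170222, a log2 difference of 0.46 ± 0.32. In MBH it was near 0 with AC3174, at 0.131, 0 and 0.054 CPM, and at 7.29, 3.08 and 5.15 CPM with AC170222. The MBH log2 difference was -6.38, and neither region's difference passed on its own (edgeR, adjusted p = 1 in both). Its adjusted p rose to 0.0558 with DESeq2 size factors, 0.0883 with limma-voom, 0.224 with the replicate block and 1 with the code numbers as a covariate. It was above 0.05 in 9 of the 12 fits that left out a library.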

How the results depend on the processing

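The count of genes called in DVC total RNA was 0 in the edgeR fit and 240 with DESeq2, and 0 to 1 when each library was left out, the 1 being Hcrtr1 without the second AC3174 library. It was 0 under every other alternative, the replicate block included, which left 677 genes with an unadjusted p under 0.05. With DESeq2 the calls were 424 in MBH, 669 in the DVC IP (limma-voom 7) and 733 for the difference between the regions, where limma-voom called 2, DESeq2 size factors 0, the replicate block 0, the code numbers as a covariate 0, and leaving out each library 0 to 9, against 1. The cause was not tested. Replicate numbers in the titles do not pair the libraries by the correlations above, and the block changed no call in DVC.

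Of the 97 named genes, 15 changed sign in at least 1 alternative, and of 33 list medians 17 did. None of the 24 genes of smallest p did, but they were picked from the same libraries, so their steady sign is not a test. The common biological variation in the 12 DVC inputs was 0.918 over all genes tested, scarce ones included. For genes of at least 10 CPM under both drugs the median standard error of the log2 difference was 0.32. With 3 libraries a group, the edgeR fit called no difference of any size. Differences well beyond 1 log2 unit, such as that of Poli at -2.77 ± 0.64, did not pass either.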
